A study of Mus musculus with 6 samples.

Results

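The 10 genes described here encode receptors for FGF and EGF family ligands (Fgfr1, Fgfr2, Fgfr3, Egfr, Erbb2 and Erbb3), a pair of ETS transcription factors (Etv4 and Etv5) and a pair of inhibitors of the ERK cascade (Spry2 and Dusp6). They were chosen by gene symbol from the 24421 genes of the deposited count table, and all 10 matched 1 gene each. RNA came from sorted, lineage-labeled alveolar type II (AT2) cells, the surfactant-producing epithelial cells of the lung alveolus, from 3 Control and 3 caBmpr1a mice. Control mice carried Sftpc-CreERT2/+ and R26-tdTomato/+, and caBmpr1a mice carried Sftpc-CreERT2/+ and R26-tdTomato/R26-caBmpr1a, the second Rosa26 allele encoding a constitutively active BMP type I receptor. Both groups thus shared the tamoxifen-dependent Cre driven by the Sftpc promoter and the tdTomato reporter by which cells were sorted. The reporter does not show whether the caBmpr1a allele had also recombined in a given cell. Control 1 and Control 3 were 12 weeks old and Control 2 was 16 weeks old, while caBmpr1a 1 was 16 weeks old and caBmpr1a 2 and caBmpr1a 3 were 12 weeks old.

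FGF and EGF family ligands bind receptor tyrosine kinases at the cell surface, which pass the signal through RAS, RAF and MEK to the kinase ERK. ERK activity raises transcription of Etv4 and Etv5 and also of its own inhibitors, among them Spry2, which acts near the receptor, and Dusp6, a phosphatase that removes phosphate from ERK. In AT2 cells FGFR2 is the main receptor for FGF7 and FGF10, and Etv5 is known for its role in keeping AT2 identity. BMP receptors signal through SMAD1/5, which bind GC-rich sites such as GGCGCC, while ETS factors such as ETV5 bind sites with the core CCGGAA.

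The 250 bases upstream of an annotated RefSeq start were available for 7 of the 10 genes (9 windows, GRCm38.p6, the assembly also called mm10), and not for Fgfr1, Erbb3 and Etv4. The windows of the genes on which the comparison between groups turns are printed 5′ to 3′ on the strand of the gene, with GGCGCC in capitals where either strand held it. The motif occurred in 3 of the 9 windows, against 9.59% of all 32851 windows of this length. These 3 were both Fgfr3 windows and an Etv5 window, with a GC content of 66.8% to 72.8%. The share over all windows was not matched for GC content. CCGGAA occurred on either strand in 1 window, that of Egfr, against 12.0% of all windows, and that window held no GGCGCC for it to overlap. These are matches of letters and not measured binding sites.
Etv5, chr16:22439571-22439820, minus strand: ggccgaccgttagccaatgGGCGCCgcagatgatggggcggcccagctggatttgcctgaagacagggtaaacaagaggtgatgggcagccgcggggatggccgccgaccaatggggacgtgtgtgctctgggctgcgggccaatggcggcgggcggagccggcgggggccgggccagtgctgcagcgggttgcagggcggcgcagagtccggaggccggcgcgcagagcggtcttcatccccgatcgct
Fgfr2, chr7:130266809-130267058, minus strand: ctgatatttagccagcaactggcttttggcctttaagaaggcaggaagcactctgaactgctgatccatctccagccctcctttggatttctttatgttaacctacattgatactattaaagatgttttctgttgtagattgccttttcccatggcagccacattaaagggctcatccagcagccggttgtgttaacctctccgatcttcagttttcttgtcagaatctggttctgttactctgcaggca
Fgfr3, chr5:33721474-33721723, plus strand: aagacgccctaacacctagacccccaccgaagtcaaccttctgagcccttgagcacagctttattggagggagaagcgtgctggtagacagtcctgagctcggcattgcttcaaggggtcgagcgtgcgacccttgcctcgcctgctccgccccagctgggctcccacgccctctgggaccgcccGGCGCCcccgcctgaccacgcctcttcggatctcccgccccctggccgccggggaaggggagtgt
Spry2, chr14:105896820-105897069, minus strand: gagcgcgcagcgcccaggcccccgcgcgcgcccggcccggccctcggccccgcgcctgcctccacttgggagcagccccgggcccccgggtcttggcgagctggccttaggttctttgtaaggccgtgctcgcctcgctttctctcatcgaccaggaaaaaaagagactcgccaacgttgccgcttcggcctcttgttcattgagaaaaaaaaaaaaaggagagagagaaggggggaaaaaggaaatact
Dusp6, chr10:99262981-99263230, plus strand: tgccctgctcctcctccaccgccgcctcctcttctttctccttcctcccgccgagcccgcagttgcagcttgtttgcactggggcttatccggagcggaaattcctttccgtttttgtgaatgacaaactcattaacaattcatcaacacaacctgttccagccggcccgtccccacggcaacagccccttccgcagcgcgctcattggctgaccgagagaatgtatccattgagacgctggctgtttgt
In the Etv5 window the motif began 231 bases before the start site, and in the Fgfr3 window it began 65 bases before it. A second Fgfr3 start had a match 123 bases upstream, and a second Etv5 start had none. The printed Fgfr2, Spry2 and Dusp6 windows held neither motif.

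Close relatives can lose or exchange reads in counting, so the longest stretch of identical sequence was found for each pair within a family. Among the receptors it was 26 bases, shared by the coding sequences of Fgfr1 and Fgfr3, and the other receptor pairs shared 14 to 20 bases. For the ETS pair it was 23 bases of coding sequence across a splice junction. The longest of the receptors and that of the ETS pair are printed. All stretches were shorter than the reads as sequenced, but reads were trimmed before alignment. Stretches with mismatches were not searched, nor were Fgfr4, Erbb4 and Etv1. These lengths therefore do not bound how far the genes could be confused.
Fgfr1 and Fgfr3: gagatggagatgatgaaaatgattgg
Etv4 and Etv5: ggcatcatgcagaaggtggctgg
Exons of Fgfr1 overlapped those of Gm16159 over 125 bases (2.49% of its exon length) and those of Erbb2 overlapped Mien1 over 9 bases. The other 8 genes overlapped no annotated exon of another gene.

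The libraries held 21554249 to 28440227 counts each. AT2 markers were abundant, and the mean Sftpc level was 48764 CPM (counts scaled to library depth with edgeR's TMM factors) in Control and 43992 CPM in caBmpr1a. Id1, a direct BMP target, was at 18.5 to 20.8 CPM in Control and at 124, 177 and 411 CPM in caBmpr1a 1, 2 and 3 (log2 fold change 3.61, adjusted p = 0.0172 by edgeR's quasi-likelihood test). Control 1 and caBmpr1a 3 stood apart from the other 4 libraries, holding 176 and 146 CPM summed over 4 Y-linked genes where the others held 0. The first principal component, with 49.9% of the variance, also placed these 2 libraries at 1 end. Results are therefore given with and without them.

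The levels of the genes spanned a wide range. Per kilobase of exon, Etv5 was the most abundant of the 10 in Control (352 ± 44.5 CPM per kb, SD, n = 3), at percentile 99.2 of the tested genes. Fgfr2 followed with 204 ± 50.9 CPM per kb and was the most abundant receptor. Spry2 stood at 88.7 ± 4.32, Dusp6 at 41.8 ± 2.18 and Erbb3 at 36.5 ± 6.65 CPM per kb. Erbb2 (17.9 ± 1.07 CPM per kb) and Fgfr3 (17.5 ± 3.52 CPM per kb) were close to each other. Fgfr1 (3.83 ± 0.555), Egfr (2.86 ± 0.718) and Etv4 (0.900 ± 0.272 CPM per kb) were the lowest. Neighbours in this order did not overlap between libraries of the Control group except Dusp6 with Erbb3, Erbb2 with Fgfr3, and Fgfr1 with Egfr. In caBmpr1a the first 5 places were the same, while Fgfr3 stood above Erbb2 and Egfr above Fgfr1.

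**Figure D1:**
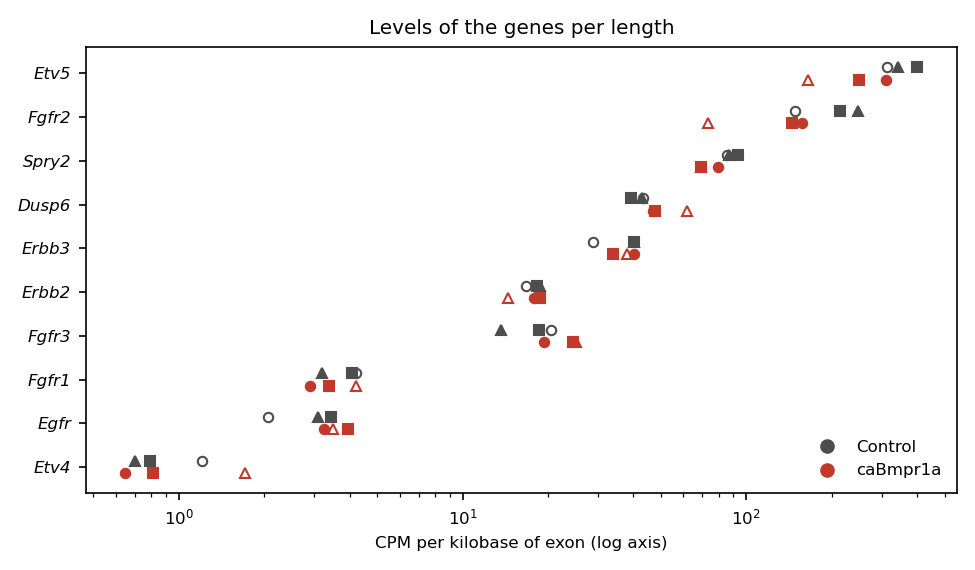
CPM per kilobase of exon (log axis) of the 10 genes in each Control (grey) and caBmpr1a (red) library, with circles, squares and triangles for replicates 1, 2 and 3 and open symbols for the libraries with Y-linked reads. Etv5 and Fgfr2 lie at the top, with Control means of 352 and 204 CPM per kb, and Etv4 lies at the bottom with 0.900 CPM per kb.

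Across the 16723 genes tested with edgeR's quasi-likelihood test, 0 of the 10 had an adjusted p under 0.05, and DESeq2 and limma-voom also called 0. Over all tested genes, 0.239% were called higher and 0.0120% lower in caBmpr1a. At an unadjusted p under 0.05, 0 of the 10 were higher and 3 were lower (Fgfr2, Etv5 and Spry2), where 4.62% and 5.05% of all genes were. This number depended on the fit. Counted in either direction, it was 0 in edgeR without Control 2, without Control 3 or without caBmpr1a 3. It was 1 with the replicate block, and 5 in DESeq2 and with the covariate for Y-linked reads. In TMM-scaled CPM, all 3 caBmpr1a values lay above all 3 Control values for 1 gene (Dusp6), against 7.0% of all genes. They lay below them for 2 (Etv5 and Spry2), against 10.1%. The log2 fold changes of the 10 genes were positive for 5 and negative for 5, with a median of -0.020 beside -0.0096 over all genes. With 3 libraries a group, permuting the labels exactly for 1 gene gives no p below 0.1, so the tests across all genes were used.

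**Figure D2:**
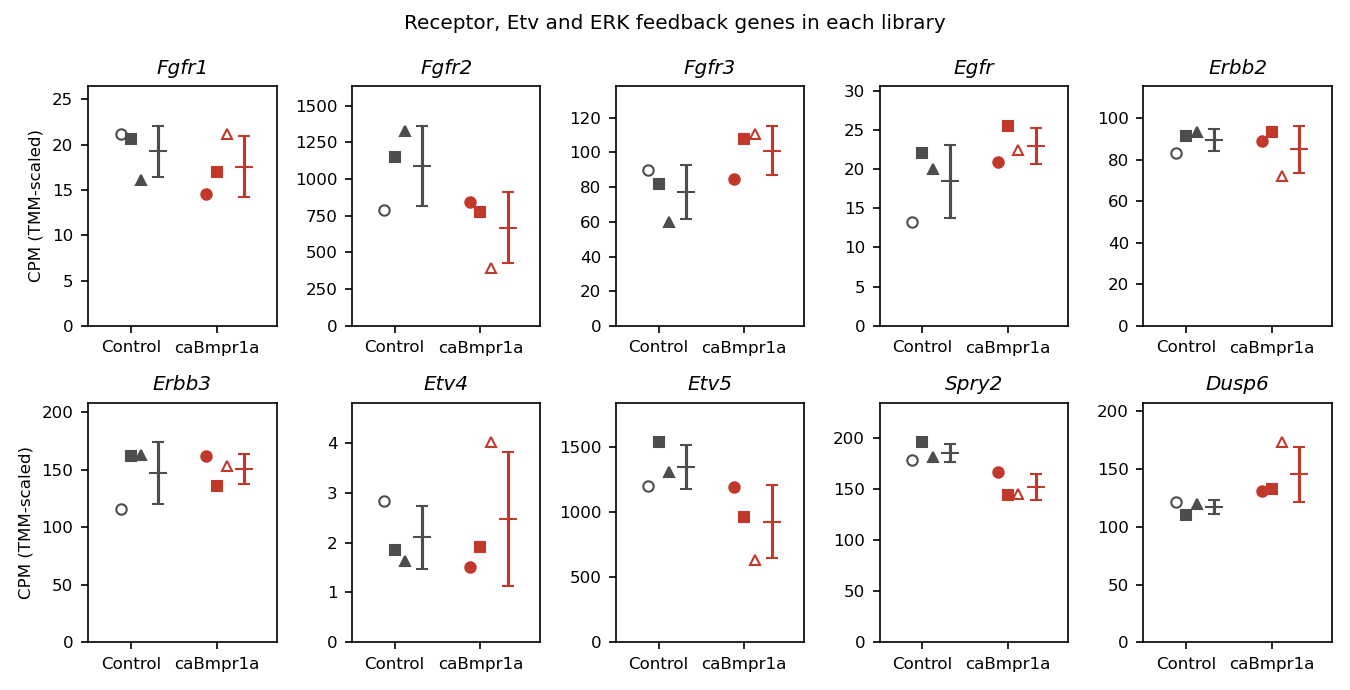
TMM-scaled CPM of each gene in the Control (grey) and caBmpr1a (red) libraries, with circles, squares and triangles for replicates 1, 2 and 3, open symbols for Control 1 and caBmpr1a 3 (the libraries with Y-linked reads), and dashes with bars for the mean and SD of 3 libraries. The groups do not overlap for Etv5, Spry2 and Dusp6, and caBmpr1a 3 is the lowest library for Fgfr2 (393 CPM) and Etv5 (631 CPM).

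Fgfr2, the receptor for FGF7 and FGF10 on AT2 cells (chr7:130162451-130266808, minus strand), had the largest difference of the 10 genes. Its levels were 791, 1149 and 1326 CPM in Control 1, 2 and 3 and 842, 772 and 393 CPM in caBmpr1a 1, 2 and 3. The groups overlapped at Control 1 and caBmpr1a 1, and the lowest library of each group was the 1 with Y-linked reads. The mean was 1089 ± 272 CPM in Control and 669 ± 242 CPM in caBmpr1a (SD, n = 3). The log2 fold change was -0.70 (SE 0.30, 95% interval -1.39 to -0.013), with an unadjusted p of 0.0467 and an adjusted p of 0.508 in edgeR's quasi-likelihood test. Compared among libraries of the same kind, Fgfr2 was lower in caBmpr1a in both kinds: 393 against 791 CPM where Y-linked reads were present, and 842 and 772 against 1149 and 1326 CPM where they were not. With the presence of Y-linked reads as a covariate in edgeR the log2 fold change was -0.75 (SE 0.12, adjusted p = 0.0228), a fit that called 1.26% of genes lower and 1.27% higher. In the 4 libraries without such reads it was -0.58 (adjusted p = 0.0609 in edgeR). DESeq2, which called 1.45% of its genes higher and 0.646% lower, gave -0.69 (adjusted p = 0.306). Leaving out 1 library at a time moved the value between -0.89 (without Control 1) and -0.40 (without caBmpr1a 3).

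Fgfr3 and Fgfr1 differed less than Fgfr2, while Fgfr4, which is not among the 10 genes, had a log2 fold change of 0.91. Fgfr3 (chr5:33721724-33737068, plus strand) was at 89.9, 81.7 and 60.0 CPM in Control 1, 2 and 3 and at 84.9, 108 and 111 CPM in the caBmpr1a libraries. Only Control 1 and caBmpr1a 1 crossed, and the log2 fold change was 0.39 (SE 0.17, adjusted p = 0.528 in edgeR's test). Without Control 3, the lowest library, it was 0.23. Fgfr1, which is prominent in mesenchyme (chr8:25518759-25575718, plus strand), was at 21.2, 20.6 and 16.1 CPM in Control and at 14.5, 17.0 and 21.2 CPM in caBmpr1a. Its groups covered nearly the same range, and the log2 fold change was -0.13 (95% interval -0.54 to 0.28), turning to 0.0023 with scaling by library size only.

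Counted per length over the 4 FGF receptor genes with a kinase domain, the summed level was 226 ± 47.6 CPM per kb in Control and 154 ± 42.0 in caBmpr1a (SD, n = 3). Fgfr2 made up 85.2%, 89.8% and 93.1% of this sum in Control 1, 2 and 3 and 86.6%, 82.4% and 69.3% in caBmpr1a 1, 2 and 3. The 2 groups overlapped, and caBmpr1a 3 had the lowest share. Fgfr3 made up 5.12% to 11.8% in Control and 10.6% to 23.7% in caBmpr1a. Fgfr4 made up 0.600% to 0.689% in Control and 1.16% to 2.94% in caBmpr1a, with no overlap. These shares are descriptions and were not tested, and a share moves when any other member of the sum does.

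For the EGF family receptors every interval of the difference included 0. Egfr, which binds EGF, TGFα and related ligands (chr11:16752203-16913907, plus strand), was at 13.2, 22.1 and 19.99 CPM in Control and at 20.9, 25.5 and 22.5 CPM in caBmpr1a. Control 1 was the lowest library and the rest overlapped (log2 fold change 0.31, 95% interval -0.14 to 0.77, adjusted p = 0.646 in edgeR). Without Control 1 the log2 fold change of Egfr was 0.12. Erbb2, which has no ligand of its own and pairs with other members of the family (chr11:98412484-98437716, plus strand), was at 83.6, 91.7 and 93.6 CPM in Control and at 89.4, 93.6 and 72.3 CPM in caBmpr1a. Its log2 fold change was -0.075 (95% interval -0.37 to 0.22). Erbb3, a neuregulin receptor with weak kinase activity (chr10:128569368-128589501, minus strand), was at 116, 162 and 162 CPM in Control and at 162, 136 and 153 CPM in caBmpr1a. Its log2 fold change was 0.034 (95% interval -0.32 to 0.39). Erbb2 changed sign with scaling by library size only (0.052) and Erbb3 changed sign in the 4 libraries without Y-linked reads (-0.091). Summed per length with Erbb4, the family stood at 57.5 ± 8.38 CPM per kb in Control and 58.3 ± 2.85 in caBmpr1a, with Erbb3 contributing a mean of 63.2% and 64.1%.

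Etv5, the ETS factor that acts downstream of FGF and ERK signaling (chr16:22381313-22439570, minus strand), did not overlap between groups in TMM-scaled CPM. It was at 1199, 1533 and 1309 CPM in Control 1, 2 and 3 and at 1189, 958 and 631 CPM in caBmpr1a 1, 2 and 3. The gap between Control 1 and caBmpr1a 1 was small beside the spread within caBmpr1a, whose libraries differed by 1.88-fold against 1.28-fold in Control. Scaled by library size only, these libraries crossed: Control 1 had 26751 of 22909120 counts on Etv5 and caBmpr1a 1 had 25936 of 21554249. The mean was 1347 ± 170 CPM in Control and 926 ± 280 CPM in caBmpr1a (SD, n = 3). The log2 fold change was -0.54 (SE 0.23, 95% interval -1.07 to -0.010, unadjusted p = 0.0466, adjusted p = 0.508 in edgeR's quasi-likelihood test). With the covariate for Y-linked reads it was -0.58 (adjusted p = 0.0848 in edgeR), and in the 4 libraries without such reads -0.37 (adjusted p = 0.264 in edgeR). Without caBmpr1a 3 it was -0.29. That library also had the highest Id1 level of the 6, and Etv5 and Fgfr2 were lowest in it. Control 1, the other library with Y-linked reads, was likewise the lowest in Control for Etv5 and Fgfr2, with Id1 at 18.5 CPM. A relation of either gene to Id1 was not tested.

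Etv4, the close relative of Etv5, had few reads. It had 63, 43 and 43 counts in Control and 33, 49 and 123 counts in caBmpr1a, or 1.64 to 2.82 CPM and 1.51 to 4.0 CPM. The groups overlapped and caBmpr1a 3 stood above the other 5 libraries (log2 fold change 0.24, 95% interval -0.84 to 1.32). Without caBmpr1a 3 the log2 fold change was -0.25. Of the summed level of Etv1, Etv4 and Etv5 per length, Etv5 made up 99.3% to 99.5% in Control and 98.5% to 99.4% in caBmpr1a. That sum was 354 ± 44.5 CPM per kb in Control and 244 ± 72.9 in caBmpr1a.

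The 2 feedback inhibitors lay on opposite sides. Spry2 (chr14:105891947-105896819, minus strand) was at 179, 195 and 181 CPM in Control and at 166, 144 and 145 CPM in caBmpr1a. All 3 caBmpr1a libraries were below all 3 Control libraries, and within each group the libraries differed by at most 1.15-fold. The log2 fold change was -0.29 (SE 0.11, 95% interval -0.55 to -0.023, adjusted p = 0.482 in edgeR's test).

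Dusp6 (chr10:99263231-99267489, plus strand) was at 121, 110 and 120 CPM in Control and at 131, 133 and 173 CPM in caBmpr1a. All 3 caBmpr1a libraries were above all 3 Control libraries, with caBmpr1a 3 the highest. The log2 fold change was 0.32 (SE 0.14, 95% interval -0.00024 to 0.63, unadjusted p = 0.0501, adjusted p = 0.517 in edgeR's test). In the 4 libraries without Y-linked reads the log2 fold change of Dusp6 was 0.23 and that of Spry2 -0.24, with adjusted p of 0.288 and 0.309 in edgeR.

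Split by the presence of Y-linked reads, a comparison chosen after the values were seen, 2 of the 10 genes (Fgfr3 and Dusp6) were above Control within both kinds of library, against 13.8% of all tested genes. In the same split 3 genes (Fgfr2, Etv5 and Spry2) were below Control within both kinds, against 18.8% of all tested genes. The kind with Y-linked reads holds 1 library of each group.

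**Figure D3:**
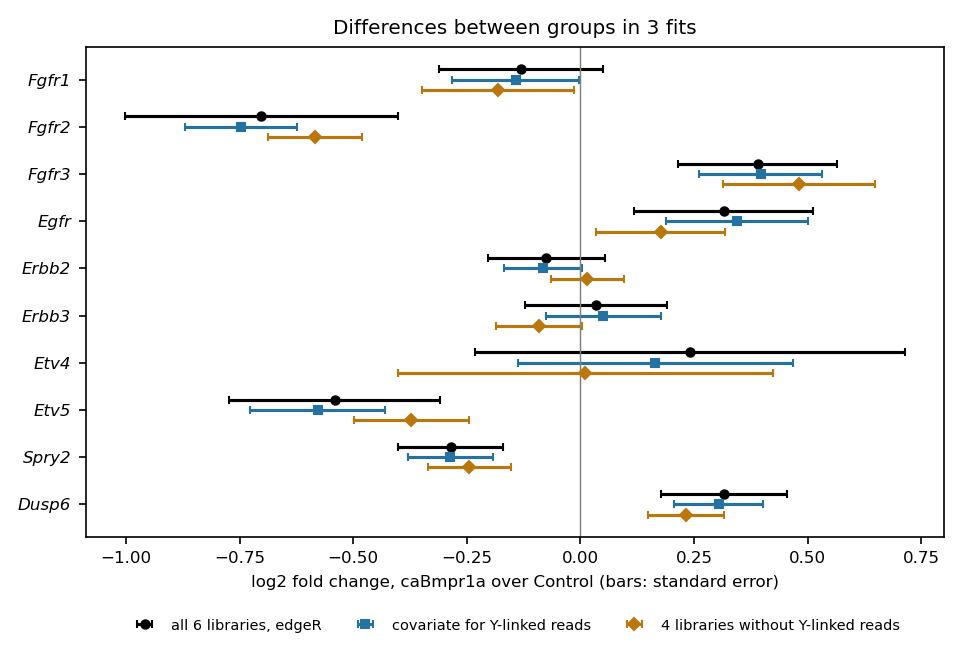
Log2 fold change (caBmpr1a over Control) of the 10 genes in edgeR with all 6 libraries (black circles), with a covariate for Y-linked reads (blue squares) and in the 4 libraries without such reads (orange diamonds), with bars for the standard error. The error bars of all 10 genes are narrower in the latter fits than with all 6 libraries. Fgfr2 has values of -0.70, -0.75 and -0.58, and Erbb2 and Erbb3 change sign.

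Genes with the pattern across the 6 libraries most like that of Etv5, Fgfr2 and Spry2 were found by the root mean square difference of log2 CPM, each gene centred on its own mean. Etv5 was most closely tracked by Eda (0.062), Sema4f (0.069), Enc1 (0.072) and Maob (0.074), over an Etv5 range of 1.28 on the log2 scale. Fgfr2 was most closely tracked by Bcl2a1a (0.065), Il33 (0.076), Fam126b (0.087) and AI464131 (0.088), over a range of 1.75. Il33, which encodes an epithelial alarmin cytokine, was at 449, 720 and 757 CPM in Control and at 479, 417 and 244 CPM in caBmpr1a. For Spry2 the closest were Swt1 (0.022), Cebpa (0.022), March7 (0.028) and Hebp1 (0.029), over a range of 0.43. Cebpa, a transcription factor of mature AT2 cells, was at 1068, 1180 and 1089 CPM in Control and at 1032, 887 and 859 CPM in caBmpr1a. Eda and Bcl2a1a, the closest to Etv5 and to Fgfr2, had few reads (40 to 102 and 40 to 138 counts a library). All these genes were selected for likeness among 16723, and no test applies to it.

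The rest of the pathway was described with 5 lists of 83 genes, of which 78 were tested. In edgeR's test the adjusted p was under 0.05 for 0 of the 78. At an unadjusted p under 0.05, 11 were higher and 6 lower, where 4.62% and 5.05% of all genes were. DESeq2, which called 1.45% of its genes higher and 0.646% lower, called 2 of the list genes, and limma-voom called 0. List genes were named mainly by small p, which favours groups without overlap. Over all tested genes, 7.0% lay wholly above Control and 10.1% wholly below it. Of the 9 other receptors and co-receptors, 6 had a positive log2 fold change and the median was 0.33. Fgfr4 was at 3.45, 5.19 and 5.03 CPM in Control and at 6.65, 9.19 and 9.83 CPM in caBmpr1a, without overlap (log2 fold change 0.91, adjusted p = 0.293 in edgeR). Gpc3, a cell surface heparan sulfate proteoglycan, differed by 0.39 on the log2 scale, and Sdc4, another such proteoglycan, by -0.19.

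Of the 14 tested ligand genes, 11 had a positive log2 fold change and the median was 0.40. Most of the 14 had few reads, so this count and median rest largely on low counts. Fgf1 was at 195, 257 and 245 CPM in Control and at 283, 346 and 289 CPM in caBmpr1a, without overlap (log2 fold change 0.40, adjusted p = 0.452 in edgeR). Egf was at 1.10 to 1.35 CPM in Control and 1.88 to 4.85 CPM in caBmpr1a (log2 fold change 1.38, adjusted p = 0.387 in edgeR). Fgf2 was at 0.381 to 0.686 CPM in Control and 0.825 to 2.44 CPM in caBmpr1a (log2 fold change 1.81, adjusted p = 0.380 in edgeR). Both rest on few counts, 10 to 30 a library in Control.

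Of the 21 adaptor and cascade genes, 5 had a positive and 16 a negative log2 fold change, with a median of -0.11. Mapk3, which encodes ERK1, was at 256, 224 and 229 CPM in Control and at 281, 337 and 377 CPM in caBmpr1a, without overlap (log2 fold change 0.49, adjusted p = 0.339 in edgeR). Map2k1, which encodes MEK1, lay on the other side at -0.26 on the log2 scale (adjusted p = 0.467 in edgeR).

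The 22 tested feedback and inhibitor genes were split evenly, 11 positive and 11 negative, with a median log2 fold change of 0.0098. Spry1, the relative of Spry2, was at 379, 442 and 469 CPM in Control and at 363, 293 and 233 CPM in caBmpr1a (log2 fold change -0.54, adjusted p = 0.405 in edgeR). Lrig1, an inhibitor of EGF family receptors, was at 55.8, 67.6 and 86.7 CPM in Control and at 50.6, 35.3 and 25.5 CPM in caBmpr1a (log2 fold change -0.92, adjusted p = 0.306 in edgeR). Neither gene overlapped between groups, and caBmpr1a 3 was the lowest library for both. Of the 22 genes, 3 lay wholly below Control and 2 wholly above it, against 10.1% and 7.0% of all tested genes. Dusp7, a phosphatase of the same cytoplasmic class as Dusp6, was at 59.8, 60.8 and 55.6 CPM in Control and at 78.8, 91.3 and 109 CPM in caBmpr1a (log2 fold change 0.66, adjusted p = 0.147 in edgeR). DESeq2 called Dusp7 (adjusted p = 0.0040). Neither family lay on 1 side: named after their values were seen, Dusp4 had a log2 fold change of -0.53 with all caBmpr1a libraries below Control, Dusp9 of -0.94 and Spry4 of 0.38, with adjusted p of 0.477, 0.575 and 0.669 in edgeR.

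Of the 12 other tested ERK target genes 5 had a positive log2 fold change, and the median was -0.042. Epha4, an ephrin receptor, was at 7.44, 11.4 and 9.67 CPM in Control and at 21.1, 38.5 and 25.2 CPM in caBmpr1a (log2 fold change 1.57, SE 0.25, adjusted p = 0.0715 in edgeR). DESeq2 called it with an adjusted p of 8.57e-06. Ccnd1, which encodes cyclin D1, was at 246, 371 and 296 CPM in Control and at 264, 195 and 133 CPM in caBmpr1a, with overlap (log2 fold change -0.63, adjusted p = 0.485 in edgeR). Phlda1 stood at -0.28 on the log2 scale (adjusted p = 0.492 in edgeR) with all caBmpr1a libraries below Control. With the covariate for Y-linked reads edgeR called 7 of the 78 list genes, in a fit that called 1.27% of all genes higher and 1.26% lower. Among the 7 were Hbegf, Mapk3, Dusp7 and Epha4 higher and Spry1 and Lrig1 lower.

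**Figure D4:**
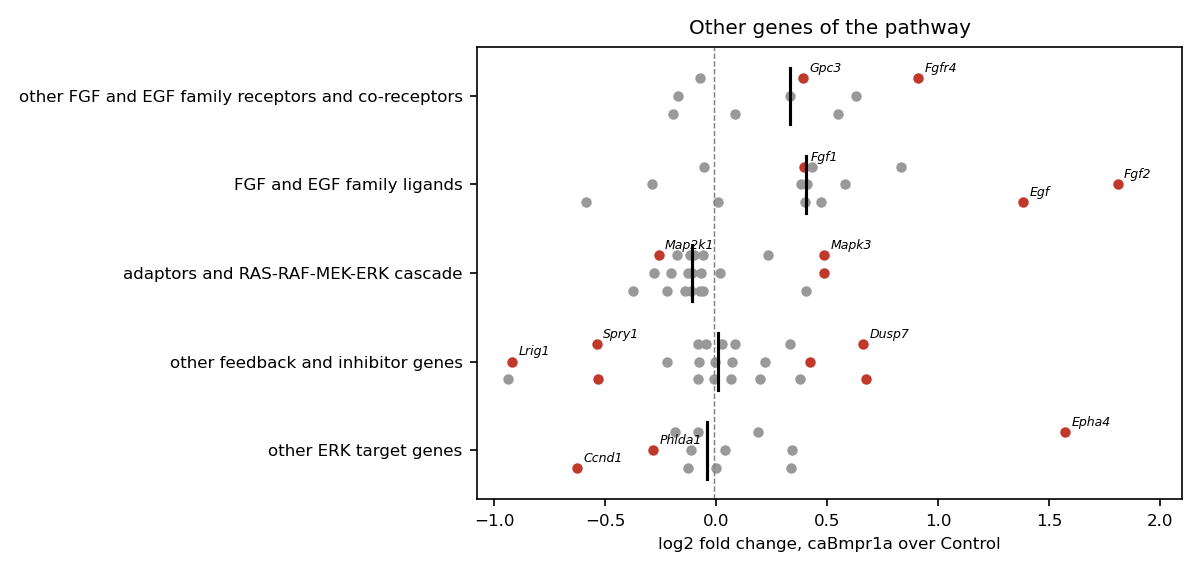
Log2 fold change (caBmpr1a over Control) of the 78 tested genes of 5 pathway lists, with genes at an unadjusted p under 0.05 in red, list medians as black bars and the median of all genes as a dashed line. The ligand and receptor medians lie at 0.40 and 0.33, and those of the other lists near 0. Most ligand genes, and the gene at the receptor median, had few reads.

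Markers of AT2 cells and of other cell types were compared as well. All 10 endothelial markers had positive log2 fold changes, and their sum was 274 to 572 CPM in Control and 495 to 814 CPM in caBmpr1a. The 10 mesenchymal markers were likewise all positive, with sums of 192 to 297 CPM and 364 to 463 CPM. Of 9 AT2 markers 8 were negative, with sums of 116224 to 131450 CPM in Control and 99684 to 111051 CPM in caBmpr1a. Of 10 AT1 markers 8 were positive, with sums of 2943 to 3790 CPM in Control and 3245 to 3839 CPM in caBmpr1a. Of 7 tested airway markers 4 were positive, and the 8 listed summed to 723 to 916 CPM in Control and 840 to 1220 CPM in caBmpr1a, with Krt5 at 0 in every library. Tppp3, a gene of ciliated cells, was the marker called in edgeR's test (92.3 to 104 CPM in Control and 243 to 439 CPM in caBmpr1a, adjusted p = 0.0165). The other airway markers summed to 620 to 823 CPM in Control and 597 to 813 CPM in caBmpr1a. Most of that sum was Scgb1a1, with means of 510 and 574 CPM. Within it, Foxj1 rose without overlap (2.82 to 4.80 CPM in Control, 4.86 to 7.97 CPM in caBmpr1a). Cyp2f2 fell without overlap (173 to 214 CPM in Control, 127 to 139 CPM in caBmpr1a). Of 10 immune markers 8 were positive, and their sum was 1983 to 2695 CPM in Control and 310 to 1371 CPM in caBmpr1a. Without Lyz1, which AT2 cells also express, they summed to 60.9 to 68.6 CPM in Control and to 54.7 to 128 CPM in caBmpr1a. The part of these markers in the values of Fgfr2, Etv5, Spry2 and the ligand genes was not tested. In sorted bulk samples, fewer cells expressing a gene and less of its RNA per cell cannot be told apart.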

How the data were processed

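Poly(A) RNA of 3 Control and 3 caBmpr1a mice was sequenced as read pairs. The authors trimmed reads, aligned them to mm10 with Hisat2, removed duplicate reads with SAMtools and counted on genes with featureCounts v1.5.3, without strand, and deposited raw counts and gene lengths. Among gene counts, 56.9% to 60.8% of those from 1 to 20 were even, as where mates are counted separately, although the methods speak of fragments. Groups and replicate numbers came from the sample labels. Replicates of a group differed by more than counting noise, and no library was left out. The counting floor (3 counts) was 0.105 to 0.139 CPM per library.

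The quasi-likelihood test of edgeR 4.0.16 (R 4.3.3) was run on TMM-scaled counts of the 16723 genes that passed filterByExpr (smallest count 10), and p-values were adjusted over them by Benjamini-Hochberg. The standard error is the log2 fold change over the square root of F. DESeq2 1.42.0, which the study's methods name, and limma 3.58.1 (voom) were alternatives. The edgeR, DESeq2 and limma-voom fits were also run on simulated counts, in which the changed genes differed more than any of the 10 genes did. No library was set apart within a group there, so recovery of differences of the reported size was not tested.

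The genes, lists and alternatives were chosen with earlier results of these data known. List genes are named where their adjusted p was under 0.05, plus the 3 smallest unadjusted p in each list. A gene that this rule names is not reported here. Hbegf was named after its values were seen. For Etv5, Fgfr2 and Spry2 the 4 tested genes most alike are named (log2 of CPM plus 0.5). CPM per kb used the deposited exon length. Upstream sequences are from RefSeq.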

Additional observations from a re-analysis of the deposited data

How the results depend on the processing

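The comparison was repeated with 17 other fits and 2 other thresholds. The number of the 10 genes called higher was 0 in each, and the number called lower was 0 in each except the fit with Y-linked reads as a covariate, where it was 1 (Fgfr2). Fgfr2, Fgfr3, Egfr, Etv5, Spry2 and Dusp6 kept their direction in all 17 fits. With library size only, which shifted the median log2 fold change of all genes to 0.12, Fgfr1 was at 0.0023 and Erbb2 at 0.052. In the 4 libraries without Y-linked reads Erbb2 was at 0.016 and Erbb3 at -0.091. Leaving out 1 library at a time gave -0.25 to 0.012 for Fgfr1 (positive without caBmpr1a 1), -0.14 to 0.067 for Erbb2 (positive without caBmpr1a 3), -0.12 to 0.11 for Erbb3 (negative without Control 1 and without caBmpr1a 1) and -0.25 to 0.52 for Etv4. The cause was not tested.

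The labels do not say whether replicate numbers pair the mice. The deviations of same-numbered libraries from their group means correlated at -0.32, 0.25 and -0.54. Those of Control 1 and caBmpr1a 3, the libraries with Y-linked reads, correlated at 0.61. With so few libraries, and these standing apart, the correlations cannot decide whether mice were paired. With the replicate block, 0 of the 10 genes were called, Fgfr2 was at -0.74 (adjusted p = 0.724 in edgeR) Epha4 passed (adjusted p = 0.0225 in edgeR; it also passed without an expression filter and under the upper-quartile and library size scalings), and 36 genes were called higher and 5 lower. Without the block 40 were called higher and 2 lower over all genes. Those counts were 198 and 88 with DESeq2, 213 and 210 with the covariate for Y-linked reads, 73 and 40 in the 4 libraries, 62 and 5 without an expression filter, 59 and 1 with library size only, and 27 and 1 with limma-voom. With 1 library left out they were 6 (without Control 2) to 59 (without caBmpr1a 1) higher and 0 to 4 lower. For Etv4, at 33 to 123 counts a library, the standard error was 0.47, and 0.49 with halved counts.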
